A study of Mus musculus with 6 samples.

Results

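The genes described here serve the display of cell-internal peptides on major histocompatibility complex (MHC) class I molecules. They were chosen by name: the heavy chains H2-K1 and H2-D1, the light chain B2m, the peptide transporter genes Tap1 and Tap2, the loading factor Tapbp, the immunoproteasome subunits Psmb8, Psmb9 and Psmb10, and the transactivator Nlrc5. Of these 10 genes, 8 have a row under that symbol among the 27634 symbols of the deposited table, and all 8 passed the filter on low counts. H2-D1 and B2m are not analysed here. The 6 RNA-seq libraries come from cancer-associated dendritic cells (DCs) of C57BL/6 mice with ID8-Defb29/Vegf-a tumours, grown from a murine ovarian carcinoma line that was made to express a beta-defensin and a vascular growth factor. The labels give 32 to 38 days for the tumours. The mice received 100 µg of siRNA in rhodamine-conjugated polyethylenimine nanocomplexes. It was directed either against Satb1 or against no mouse gene (non-targeting, NT). The labels name 2 experiments by how strongly Satb1 was downregulated. The high experiment has 2 libraries with Satb1 siRNA and 2 with NT siRNA, and the low experiment has 1 library with Satb1 siRNA and 1 with NT siRNA. Tumour and nanocomplex are shared by all groups, so no group is free of them, and the sources used here do not give how many mice each library holds.

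In class I presentation, proteasomes in the cytosol cut proteins into peptides, the TAP transporter carries these into the endoplasmic reticulum, and a loading complex fits them onto a heavy chain paired with the light chain. Interferon-gamma and tumour necrosis factor make cells exchange the constitutive catalytic subunits of the proteasome for the immunoproteasome subunits. The transactivator Nlrc5 binds with other factors at a conserved SXY module of class I promoters. Dendritic cells use the pathway to show antigens to CD8+ T cells, and Satb1 is a chromatin organiser that anchors loops of DNA.

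The upstream sequence of H2-K1 is shown because class I heavy chain promoters are the textbook setting of these control elements. The stretch between the Tap1 and Psmb9 start sites is shown because both genes start from it, in opposite directions. The sequences are RefSeq's on build GRCm38.p6, whereas the submitters' processing notes name mm9. The H2-K1 stretch is the 200 bases before the start site, chr17:34000348-34000547, minus strand. The stretch of 225 bases between Tap1 and Psmb9 is chr17:34187331-34187555, read on the plus strand, towards Tap1. Of the 8 genes, 6 have an entry in the RefSeq promoter table. Capitals mark letters that match 1 of 4 searched motifs on either strand.
H2-K1: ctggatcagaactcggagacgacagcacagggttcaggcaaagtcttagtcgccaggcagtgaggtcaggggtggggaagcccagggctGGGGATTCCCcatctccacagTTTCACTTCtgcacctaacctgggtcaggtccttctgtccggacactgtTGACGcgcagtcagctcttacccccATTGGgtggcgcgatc
Tap1 and Psmb9: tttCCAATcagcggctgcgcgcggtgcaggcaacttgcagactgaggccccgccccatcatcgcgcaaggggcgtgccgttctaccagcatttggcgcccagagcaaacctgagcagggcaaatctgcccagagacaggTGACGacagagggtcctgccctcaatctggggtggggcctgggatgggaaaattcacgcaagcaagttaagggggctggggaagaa

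The motifs were the NF-kappaB letters GGGNN followed directly by TTNCC, the interferon regulatory factor letters GAANNGAAA, the core TGACG of the X2 box and the core CCAAT of the Y box, with N for any base. In the 250 bases before the start, H2-K1 held all 4, in that order towards the gene. Of the 27025 upstream windows in the RefSeq table, 4.0% held the NF-kappaB letters, 6.34% held GAANNGAAA, 17.86% held TGACG and 34.46% held CCAAT. The windows of Tap1 and Psmb9 overlap, and their TGACG and CCAAT matches are the same letters in the stretch above. Tapbp held CCAAT alone, and the windows of Psmb8 and Psmb10 held none of the 4. A match is a string of letters and not a measured binding site, and none of these libraries measured binding. In the order of RefSeq genes on chromosome 17, Psmb9, Tap1, Psmb8 and Tap2 are consecutive coding genes.

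Total counts were 49022011 to 71272720 per library in the high experiment and 24553454 and 27029554 in the low experiment. Satb1 had 184 and 200 counts in high Satb1 libraries, against 1233 and 1193 in high NT libraries. Its log2 fold change was -2.25 (SE 0.072, adjusted p = 1.74e-39, edgeR quasi-likelihood test). In the low experiment it had 165 counts with Satb1 siRNA and 170 with NT siRNA, a fold of 0.835 after TMM scaling with an exact 95% counting interval of 0.670 to 1.04. The decrease that the label names was therefore not detectable in the low pair at this depth. The repeats of a group differed by little more than counting noise, with a chi-square per gene of 1.37 in high Satb1 and 1.202 in high NT libraries. The edgeR test of the high experiment enters the repeats as separate libraries, so its p-values compare these libraries, not the conditions, and measure a spread that may be technical. As samples of a condition the repeats count as 1 per group, which a separate fit of summed repeats follows. Of the 7 dendritic cell markers listed, none was at 0 counts in any library. Their summed level was 19.8 to 21.4 CPM (counts relative to the TMM-scaled total of the library) in high Satb1 and 35.3 to 36.3 CPM in high NT libraries. Of the 7, 3 were called lower and 4 higher with Satb1 siRNA in the high experiment. Over all 20242 tested genes, 33.2% were called lower and 32.8% higher. The difference in the sum lies in Itgax, with 5.47 and 4.93 CPM in high Satb1 and 20.3 and 20.2 CPM in high NT libraries. The sum was 555 CPM in the low Satb1 and 345 CPM in the low NT library.

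Per length, in the authors' FPKM, H2-K1 was the most abundant of the 8 transcripts in every library and Nlrc5 the least. H2-K1 stood at 328 and 324 FPKM in high Satb1 libraries and 440.3 and 441 FPKM in high NT libraries. It reached 1395 FPKM in the low Satb1 and 1712 FPKM in the low NT library. At the other end, Nlrc5 stood at 8.76 and 8.84 FPKM in high Satb1 and 9.37 and 9.11 FPKM in high NT libraries. It is the 1 gene whose FPKM was higher in the low Satb1 library, at 66.6 FPKM, than in the low NT library, at 64.6 FPKM. Psmb8 followed H2-K1 in the high experiment, with 83.5 and 81.0 FPKM under Satb1 siRNA and 129.6 and 129.4 FPKM under NT siRNA. In the low experiment Tapbp followed H2-K1, with 370.5 FPKM under Satb1 siRNA and 407 FPKM under NT siRNA. Tap1 and Tapbp did not separate in high Satb1 libraries, where Tap1 had 30.9 and 31.2 FPKM and Tapbp 30.8 and 30.3 FPKM. Psmb9, Psmb10 and Tap2 likewise lay together there, between 16.5 and 17.7 FPKM. The class I heavy chain genes are near-identical in parts, so the H2-K1 value depends on how estimated counts divide shared reads.

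**Figure D1:**
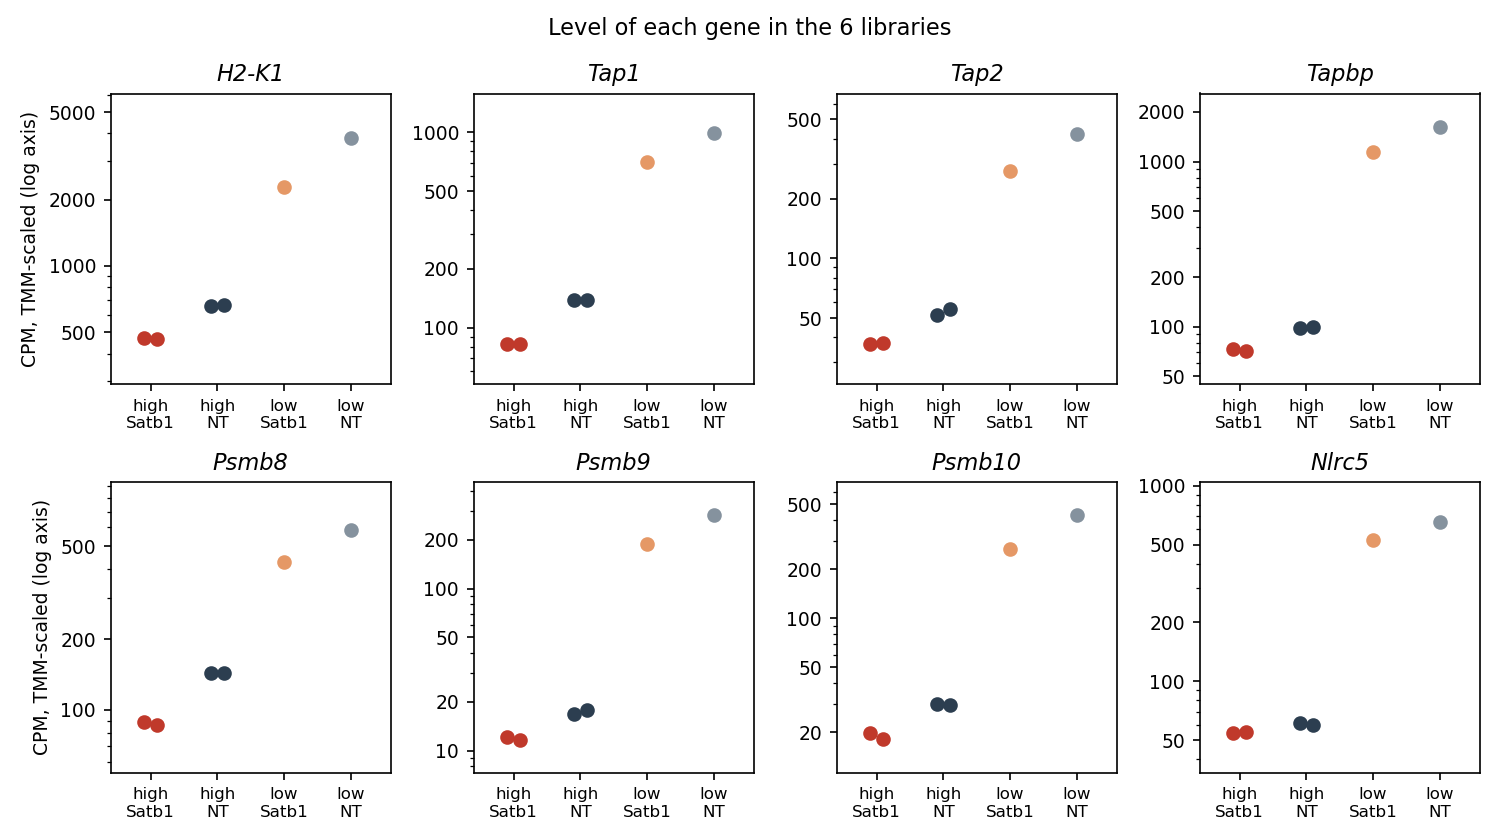
Level of each of the 8 genes (vertical log axis, TMM-scaled CPM) in the 6 libraries, 1 point per library, by group. In each panel both high Satb1 points lie below both high NT points, and both low points lie far above all 4 high points. The share of all genes with high points separated in this way was not counted. In the edgeR test of the high experiment, 33.2% of 20242 genes were called lower.

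In the high experiment all 8 transcripts were lower with Satb1 siRNA than with NT siRNA, by 1.1-fold for Nlrc5 up to 1.68-fold for Tap1. Each passed the edgeR quasi-likelihood test, but so did a large share of all genes: 33.2% of the 20242 tested genes were called lower, since the repeats were nearly identical. The median log2 fold change was -0.53 over the 8 genes and 0.011 over all tested genes. A decrease of at least 1.5-fold between summed repeats was seen for Tap1, Psmb8 and Psmb10, 3 of 8, and for 6.34% of the 13700 genes of sufficient level. None of the 8 was 1.5-fold higher, against 3.88% of those genes. Replicate 1 of high Satb1 and of high NT differed with a chi-square per gene of 67.4 over 21689 genes. Libraries of different siRNA thus stood apart for many genes, and how many of all genes showed no overlap was not counted.

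H2-K1, the classical heavy chain that binds the peptide, had 469.6 and 464 CPM in high Satb1 libraries and 659.9 and 663 CPM in high NT libraries. The groups did not overlap. Its log2 fold change was -0.50 (SE 0.00537, adjusted p = 1.04e-69 by edgeR with Benjamini-Hochberg adjustment). Tap1 encodes a TAP transporter subunit and had 82.1 and 82.4 CPM in high Satb1 libraries against 138 and 139 CPM in high NT libraries. It showed the lowest value of the 8, a log2 fold change of -0.75 (SE 0.0213, edgeR adjusted p = 4.05e-44), with repeats far closer to each other than to the other group. Tap2, the partner subunit, had 37.2 and 37.55 CPM in high Satb1 libraries and 52.0 and 55.9 CPM in high NT libraries. The NT repeats of Tap2 differed beyond counting noise (chi-square 10.81, unadjusted p = 0.00101), yet both lay above the Satb1 libraries. Tap2 had a log2 fold change of -0.53 (SE 0.0313, edgeR adjusted p = 6.64e-18). Tapbp encodes tapasin, which bridges TAP and the empty heavy chain. It had 73.1 and 71.75 CPM in high Satb1 libraries and 98.3 and 99.4 CPM in high NT libraries, without overlap. Its log2 fold change was -0.44 (SE 0.0230, edgeR adjusted p = 2.81e-28).

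The immunoproteasome subunits fell as well. Psmb8, which takes the place of Psmb5, had 89.3 and 86.4 CPM in high Satb1 libraries and 144.1 and 143.9 CPM in high NT libraries. Psmb8 had a log2 fold change of -0.71 (SE 0.0210, edgeR adjusted p = 6.11e-43). Psmb9, which takes the place of Psmb6, was the least counted, with 12.2 and 11.7 CPM in high Satb1 libraries against 16.9 and 17.75 CPM in high NT libraries. The groups stayed apart, and the log2 fold change was -0.53 (SE 0.0494, edgeR adjusted p = 1.48e-15). Psmb10, which takes the place of Psmb7, had 19.8 and 18.1 CPM in high Satb1 libraries and 30.0 and 29.6 CPM in high NT libraries. Its Satb1 repeats differed by more than counting noise (chi-square 4.478, unadjusted p = 0.0343), and both were below the NT libraries. Psmb10 had a log2 fold change of -0.65 (SE 0.0385, edgeR adjusted p = 1.84e-24).

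Nlrc5 moved least. It had 54.6 and 55.0 CPM in high Satb1 libraries and 61.0 and 59.6 CPM in high NT libraries, which did not overlap. Its log2 fold change was -0.13 (SE 0.0258, edgeR adjusted p = 7.26e-06). Placed in order from Tap1 to Nlrc5, neighbouring genes differed by less than 2 SE of their gap down to H2-K1. The step between H2-K1 and Tapbp was 0.054 on the log2 scale, just beyond 2 SE, and the step between Tapbp and Nlrc5 was 0.31.

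Markers of other cell types also differed between the siRNAs in the same libraries, against a background over all tested genes of 33.2% lower and 32.8% higher. Of the 7 listed macrophage markers, 6 were called higher and 0 lower with Satb1 siRNA. Their summed level was 1620 CPM in both high Satb1 libraries and 1220 CPM in both high NT libraries. Most of that difference lies in Cd163, at 621 and 625 CPM in high Satb1 and 318 and 317 CPM in high NT libraries. Of the 5 B cell markers 3 were called higher and 0 lower, with sums of 9.89 to 10.2 CPM in high Satb1 and 5.48 to 5.52 CPM in high NT libraries. The 5 T cell markers summed to 41.9 to 43.9 CPM in high Satb1 and 96.4 to 98 CPM in high NT libraries, with 1 called lower and 2 higher, shares near those of all genes. The difference in the sum lies in Il7r, at 36.0 and 34.6 CPM in high Satb1 and 91.45 and 92.5 CPM in high NT libraries, while Cd3g and Cd8a were called higher. Of the 7 tumour and mesothelial markers 5 were called higher and 0 lower, with sums of 696 to 702 CPM in high Satb1 and 643 to 645 CPM in high NT libraries. Of 3 neutrophil markers 3 were called higher, with sums of 60.1 to 60.7 CPM in high Satb1 and 44.9 to 45.4 CPM in high NT libraries. None of these markers was at 0 counts in any library, and their part in the class I differences was not tested. In bulk RNA, fewer cells of a type and less RNA per cell cannot be told apart.

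In the low experiment the same 8 transcripts had lower TMM-scaled levels with Satb1 siRNA, with a median log2 ratio of -0.55 against -0.059 over all genes, though Nlrc5 turned to 0.042 with library size alone. There is 1 library per siRNA and so no test, and intervals here cover counting error only. A decrease of at least 1.5-fold was seen for H2-K1, Psmb10, Tap2 and Psmb9, 4 of 8, and for 11.9% of 13700 genes, while 0 of the 8 and 15.3% of those genes were 1.5-fold higher. These values depend on the scaling: TMM factors were 0.905 for the low Satb1 and 0.708 for the low NT library. With library size alone the median over all genes was 0.29, that of the 8 genes was -0.19, and none of the 8 was 1.5-fold lower.

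H2-K1 had 50778 counts (2285 CPM) in the low Satb1 library and 72566 counts (3794 CPM) in the low NT library, a fold of 0.602 (95% counting interval 0.595 to 0.609). Psmb10 had 267 CPM in the low Satb1 and 429 CPM in the low NT library, a fold of 0.622 (0.602 to 0.644). These were the largest decreases of the 8. Tap2 had 276 CPM in the low Satb1 and 422 CPM in the low NT library, a fold of 0.655 (0.634 to 0.677). Psmb9 had 188 CPM in the low Satb1 and 285 CPM in the low NT library, a fold of 0.661 (0.635 to 0.689). Tap1, Tapbp and Psmb8 lay closer to the NT library, with folds of 0.711, 0.710 and 0.730. For Tap1 the levels were 702 CPM in the low Satb1 and 988 CPM in the low NT library, and for Tapbp 1149 CPM in the low Satb1 and 1618 CPM in the low NT library. Psmb8 had 428 CPM in the low Satb1 and 586 CPM in the low NT library. Nlrc5 was again nearest to its control, with 525 CPM in the low Satb1 and 653 CPM in the low NT library, a fold of 0.805 (0.785 to 0.825). With library size alone the other 7 genes stayed below 0, between -0.38 for H2-K1 and -0.098 for Psmb8.

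**Figure D2:**
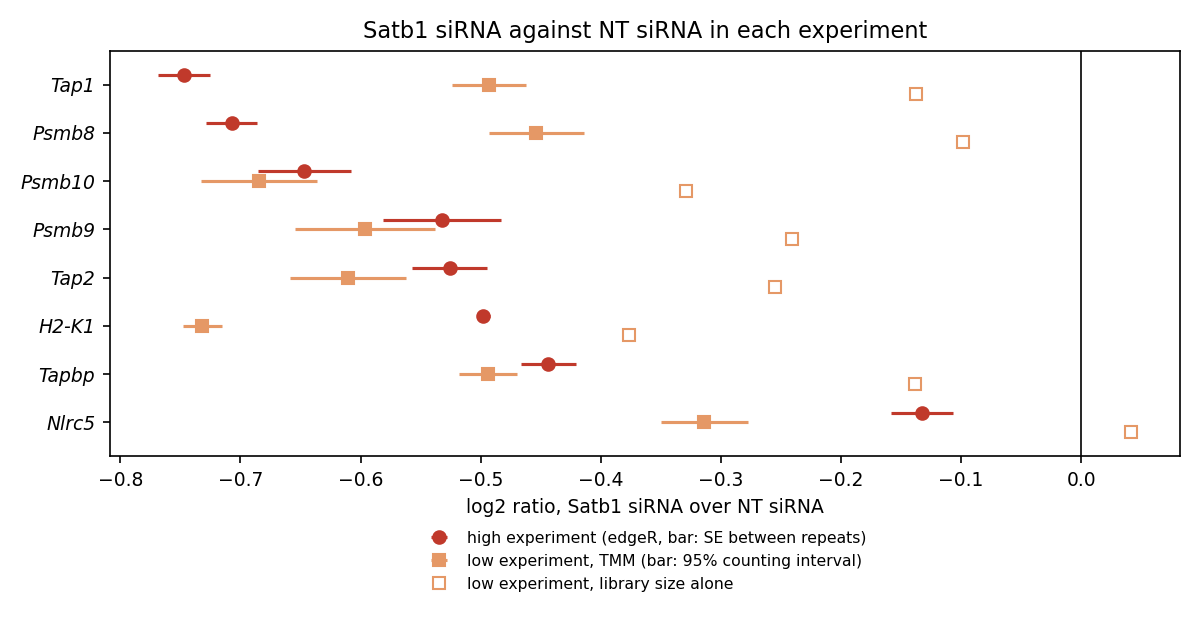
Log2 ratio of Satb1 siRNA over NT siRNA for the 8 genes. Circles are the high experiment (edgeR, bars 1 SE), filled squares the low experiment after TMM scaling (bars 95% counting intervals) and open squares the low experiment with library size alone. Tap1 and Psmb8 lead in the high experiment and H2-K1 in the low one, and the open squares lie to the right of the filled ones, that of Nlrc5 beyond 0.

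Marker sums in the low pair also differed between the siRNAs. Of 13700 genes, 11.9% were at least 1.5-fold lower and 15.3% higher with Satb1 siRNA in this pair. Of the 7 dendritic cell markers, 6 were at least 1.5-fold higher and 0 lower. The 7 macrophage markers summed to 1520 CPM in the low Satb1 and 2570 CPM in the low NT library, with 4 of 7 at least 1.5-fold lower and 1 higher. All 7 tumour and mesothelial markers were at least 1.5-fold higher with Satb1 siRNA, with sums of 605 CPM in the low Satb1 and 168 CPM in the low NT library. Neutrophil markers summed to 72.5 CPM in the low Satb1 and 235 CPM in the low NT library. Their part in the class I values was not tested.

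The siRNA effects of the 2 experiments were compared as an interaction in edgeR. In the low experiment each siRNA has 1 library, and the spread comes from the high repeats alone, so the p-values compare these libraries and do not show that the conditions differ between experiments. Between these libraries the difference was called for 5 of the 8 genes, against 21.8% of 20971 genes called for a lower and 17.9% for a higher effect in the high experiment. Tap1 and Psmb8 each had an effect that was lower by 0.26 on the log2 scale in the high experiment (edgeR adjusted p = 2.32e-15 for Tap1 and 8.98e-10 for Psmb8). H2-K1 had the opposite difference, 0.23 (edgeR adjusted p = 2.27e-57), and so did Nlrc5 with 0.18 (adjusted p = 1.77e-05). Tapbp differed by 0.045 (edgeR adjusted p = 0.0362), a call that ended when any 1 high library was left out, with adjusted p between 0.0592 and 0.406. No difference was called for Tap2, Psmb9 and Psmb10, with edgeR adjusted p of 0.165, 0.469 and 0.684. For Tap2 this rested on high NT replicate 2, without which the difference was 0.13 and called (edgeR adjusted p = 0.0211). With library size alone all 8 differences were called and all were negative, so the direction for H2-K1, Nlrc5 and Tapbp depended on the scaling. With DESeq2 the call for Psmb8 ended, at an adjusted p of 0.0704.

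With the repeats of each high group summed to 1 library, and experiment as a term beside siRNA, each siRNA has 2 samples. In that fit 0 of the 8 genes passed the edgeR test after Benjamini-Hochberg adjustment, with adjusted p between 0.348 and 0.818. Of all 19068 genes, 0.0315% were called lower and 0 higher. Without adjustment, edgeR put 7 of the 8 genes lower at the 0.05 threshold, and 5.73% of all genes lower and 2.83% higher. The exception was Nlrc5, with an unadjusted edgeR p of 0.249. Log2 fold changes ran from -0.66 for Psmb10 to -0.22 for Nlrc5.

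Larger than either siRNA difference was the contrast between the control groups, which shares its NT libraries with the siRNA comparisons. All 8 transcripts were at least 3-fold higher in the low NT library than in the high NT libraries, against 15% of 13700 genes, a fold chosen after the values were seen. At 1.5-fold the share of all genes was 35.9% higher and 31.8% lower. Psmb9 was 16.4-fold higher (15.7 to 17.2), with 285 CPM in the low NT library and 16.9 and 17.75 CPM in high NT libraries. Tapbp was also 16.4-fold higher (16.1 to 16.7), with 1618 CPM in the low NT library and 98.3 and 99.4 CPM in high NT libraries. Psmb10 followed with 14.4-fold (13.9 to 14.9) and Nlrc5 with 10.8-fold (10.5 to 11.1). Tap2 was 7.81-fold, Tap1 7.13-fold, H2-K1 5.73-fold and Psmb8 4.07-fold higher, and no 2 of these 4 intervals overlapped. The median log2 ratio of the 8 genes was 3.20 and that of all genes 0.072. With library size alone these medians were 2.57 and -0.56. Satb1 differed the other way, with a fold of 0.558 (0.475 to 0.652) in the low NT library over high NT libraries. The low libraries were also shallower, with 18011 and 18429 genes detected against 22979 to 23160 in the high libraries. Dendritic cell markers summed to 345 CPM in the low NT library and 35.3 to 36.3 CPM in high NT libraries, with 7 of 7 at least 1.5-fold higher. Macrophage markers summed to 2570 CPM in the low NT library and 1220 CPM in high NT libraries, but 3 of 7 were higher and 2 lower. Csf1r was 4.06-fold higher and makes up most of that sum, whereas Cd163 and Gata6 stood at folds of 0.375 and 0.344. Tumour and mesothelial markers summed to 168 CPM in the low NT library and 643 to 645 CPM in high NT libraries, with 6 of 7 at least 1.5-fold lower. Neutrophil markers summed to 235 CPM in the low NT library and 44.9 to 45.4 CPM in high NT libraries, with 2 of 3 higher and 1 lower. With 1 low NT library, experiment, cell content and library cannot be told apart.

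Ratios of counts within a library do not depend on scaling. The ratio of Psmb9 to Psmb6, the constitutive subunit it replaces, was 0.195 and 0.188 in high Satb1 libraries and 0.165 and 0.178 in high NT libraries. It thus was 1.12-fold higher with Satb1 siRNA (95% counting interval 1.04 to 1.198), where Psmb6 fell by 0.69 on the log2 scale (edgeR adjusted p = 6.21e-39) and Psmb9 by 0.53. The low pair went the other way, with a ratio of 1.16 in the low Satb1 and 1.33 in the low NT library (fold 0.878, 0.826 to 0.932). Psmb10 to Psmb7 was 0.230 and 0.205 in high Satb1 and 0.271 and 0.263 in high NT libraries, a fold of 0.816 (0.771 to 0.864). In the low pair this ratio was 2.11 with Satb1 siRNA and 2.81 with NT siRNA, a fold of 0.752 (0.707 to 0.8). Psmb10 thus fell further than Psmb7 in both experiments, whereas Psmb9 did so relative to Psmb6 in the low pair alone. Between the control groups the immunoproteasome side was higher in the low NT library, 7.72-fold for Psmb9 to Psmb6 (7.28 to 8.18) and 10.54-fold for Psmb10 to Psmb7 (9.99 to 11.1). Psmb5, the constitutive partner of Psmb8, is not analysed here.

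Tap1 and Psmb9 share the stretch of DNA printed above, and their count ratio was added after the values were seen. It was 6.74 and 7.05 in high Satb1 libraries and 8.16 and 7.84 in high NT libraries, a fold of 0.862 (0.803 to 0.925). In the low pair the ratio was 3.73 with Satb1 siRNA and 3.47 with NT siRNA, a fold of 1.07 (1.03 to 1.13). The ratio in the low NT library was 0.434 of that in high NT libraries (0.413 to 0.457). The pair thus kept no fixed ratio across the groups.

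**Figure D3:**
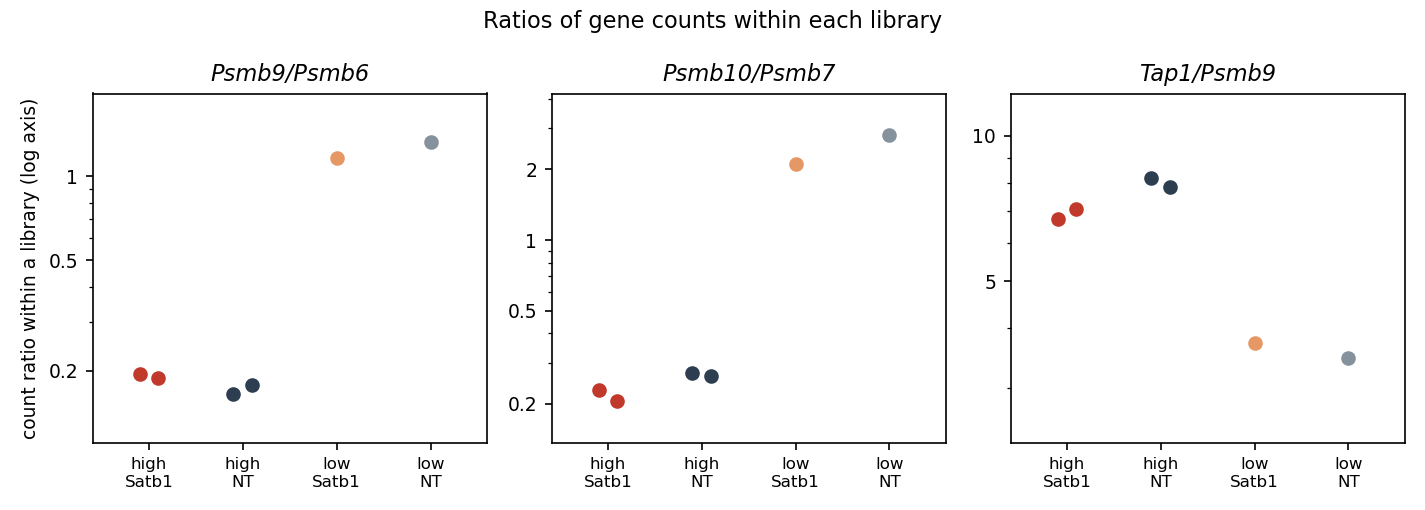
Count ratios within each library (vertical log axes, no unit) for Psmb9 to Psmb6, Psmb10 to Psmb7 and Tap1 to Psmb9, 1 point per library, by group. Both proteasome ratios are several times higher in the low than in the high libraries, and Tap1 to Psmb9 is lower there.

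Other genes of the pathway were read from lists set against the same background of 33.2% called lower and 32.8% called higher in the high experiment. Of 10 tested class I heavy chain genes other than H2-K1 and H2-D1, 8 passed the test as lower and 1 as higher, and the median log2 fold change was -0.62. Among those whose log2 CPM averaged 1 or more, the largest decreases were those of H2-Q8 (-0.89), H2-T10 (-0.73) and H2-T9 (-0.63), all nonclassical genes whose shared reads make them uncertain. H2-Bl and H2-Q2, at 0.295 CPM or less in every high library, were also called lower. The 1 higher gene was Mr1, which presents vitamin metabolites, with a log2 fold change of 0.57. H2-B2 and H2-gs10, H2-labelled rows outside the lists, went different ways. H2-B2 was called lower, at -0.33, with 793 and 785 CPM in high Satb1 and 1002 and 994 CPM in high NT libraries. H2-gs10 was called higher, at 0.049, with 306 and 304 CPM in high Satb1 and 297 and 295 CPM in high NT libraries. Among 10 chaperones and peptidases 8 were called lower and 1 higher. Calr, a lectin chaperone of the loading complex, had -0.83, the tapasin relative Tapbpl -0.66 and the disulfide isomerase Pdia3 -0.53. Of 6 proteasome activators and assembly factors 4 were called lower and 0 higher, led by the interferon-inducible activator subunits Psme2 (-0.65) and Psme1 (-0.44). The next was Psme3 at -0.29, a subunit of another activator. Psmb6 and Psmb7 were both called lower, Psmb7 with a log2 fold change of -0.35.

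Of the 9 factors of SXY promoters other than Nlrc5, 5 passed the test as lower and 1 as higher, and the median was -0.20. Rfxap and Rfxank, subunits of the RFX complex at the X box, had log2 fold changes of -0.46 and -0.40, and Nfyc, a subunit of NF-Y at the Y box, had -0.36. Ciita, the class II counterpart of Nlrc5, did not pass the test in the high experiment (0.13, edgeR adjusted p = 0.261). In the low pair Ciita was 1.99-fold higher with Satb1 siRNA after TMM scaling, opposite to the 8 class I genes. With library size alone Nlrc5 was higher too, at 475.5 CPM in the low Satb1 and 461.9 CPM in the low NT library. Among 19 tested interferon and NF-kappaB inputs 14 passed the test as lower and 3 as higher, and the median was -0.27. Among genes whose log2 CPM averaged 1 or more, the largest change was that of Ifnb1, the interferon-beta gene, at -2.64 (SE 0.1365, edgeR adjusted p = 7.30e-28). Below that level Socs1, a feedback inhibitor of cytokine signalling, had -2.70, with 0.119 and 0.143 CPM in high Satb1 and 0.822 and 0.897 CPM in high NT libraries. Irf9 and Stat2, subunits of the factor that interferon-beta activates, had -0.41 and -0.38. In the low pair Ifnb1 was at a fold of 0.807, Irf9 at 0.816 and Stat2 at 0.920 of NT after TMM scaling, none past 1.5-fold. With library size alone these genes were higher with Satb1 siRNA than with NT siRNA. Ifnb1 then had 48.9 against 47.4 CPM, Irf9 166 against 159 CPM and Stat2 1005 against 853 CPM. Of the 19 inputs, 6 were at least 1.5-fold lower and 0 higher in the low pair after TMM scaling. Over 13700 genes these shares were 11.9% and 15.3%.

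Between the control groups, 17 of 19 interferon and NF-kappaB inputs and 5 of 6 proteasome activators and assembly factors were at least 1.5-fold higher in the low NT library, where 35.9% of all genes were higher and 31.8% lower. Stat2 was 14.6-fold, Ifnb1 13.9-fold, Psme2 7.18-fold and Irf9 2.05-fold higher. Psmb6 was 2.13-fold and Psmb7 1.37-fold higher, less than any of the 8 class I genes. Of the 10 chaperones and peptidases 3 were higher and 3 lower, near the share of all genes, and Calr stood at a fold of 0.707.

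**Figure D4:**
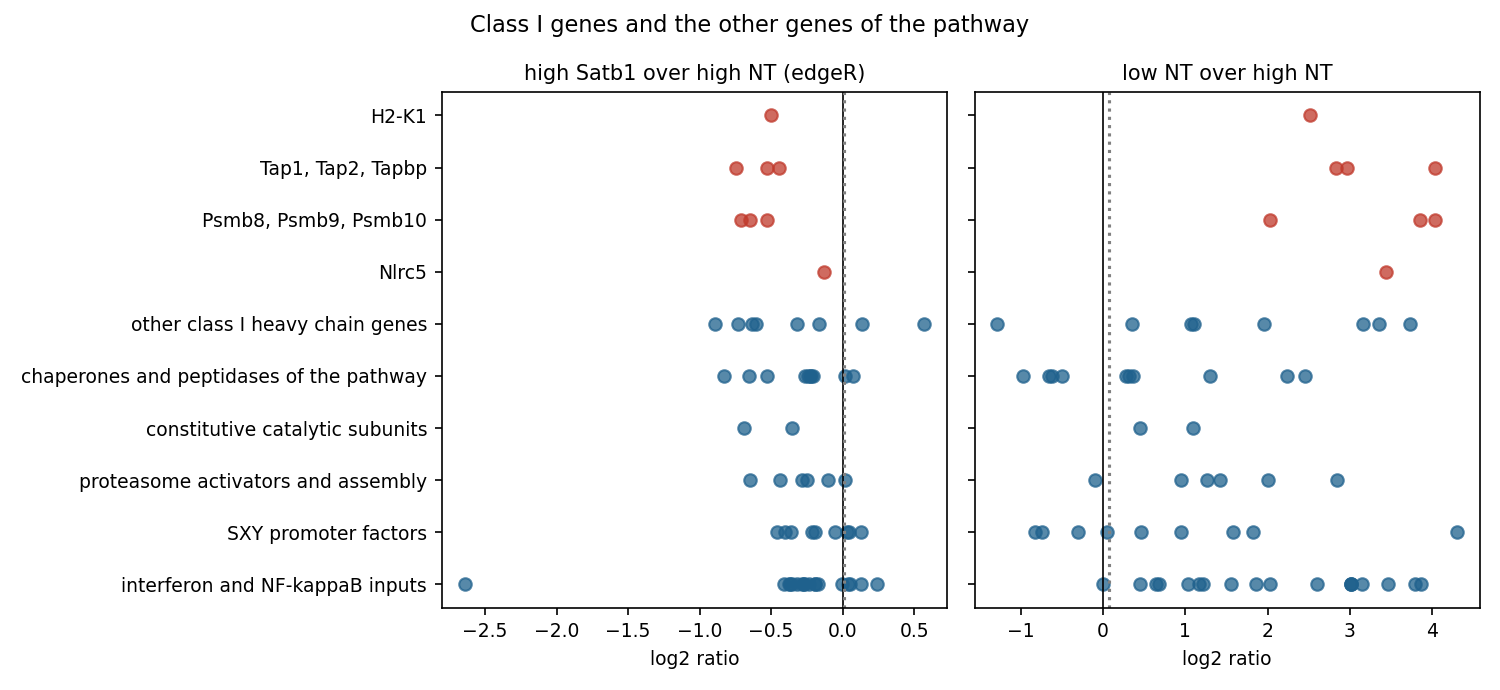
Log2 ratios of the 8 class I genes (red, by role) and of other listed pathway genes (blue), 1 point per gene. The blue genes are those whose log2 CPM averaged at least 1 in the high experiment. The left panel shows high Satb1 over high NT libraries and the right panel the low NT over high NT libraries, with a dotted line at the median of all genes. All red points lie left of 0 in the left panel and above 2 on the log2 scale in the right panel.

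The 8 genes varied most between the experiments and less with the siRNA. Among 7422 other genes whose log2 CPM averaged at least 4, those whose 4 group means were nearest to the average profile of the 8 were Arhgdia, Plagl2, Grina, Myd88 and Sdc3. Their root mean square distances from that profile were 0.0458 to 0.0582 on the log2 scale. The 8 genes themselves lay farther from their own average, between 0.141 for Tap2 and 0.531 for Psmb8. The nearest genes were picked for their small distance and the 8 were not, so these distances do not compare like with like. Myd88, an adaptor of Toll-like receptors, had 27.7 and 26.2 CPM in high Satb1 and 36.8 and 35.6 CPM in high NT libraries. It reached 222 CPM in the low Satb1 and 338 CPM in the low NT library. The nearness is a description over 4 group means, 1 per siRNA and experiment.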

How the data were processed

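Total RNA was isolated with Trizol and made into TruSeq Stranded Total RNA libraries, per the labels' protocols. The deposited table holds an FPKM value and a count per gene and library, per the file headers. The counts were taken for estimated counts, since the submitters' processing notes name RSEM 1.2.12, with DESeq2 and mm9. The deposited counts were already whole, so rounding changed nothing. The authors' FPKM divide by gene length and by library total, and served for levels between genes. The sources used here do not give the aligner or the use of strand.

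The high experiment was tested with edgeR 4.0.16 in R 4.3.3 (quasi-likelihood, robust, TMM, filterByExpr, two-sided, Benjamini-Hochberg threshold 0.05 over all tested genes). Calls made in the low pair and between controls are 1.5-fold ratios of CPM (prior count 2, mean log2 CPM of 0 or more). DESeq2 1.42.0 was an alternative. Where a gene has no counts, up to 3 are allowed for, which is 0.0421 to 0.122 CPM per library. Intervals are exact, at 95%, and cover counting error only. The fits were also run on simulated counts with the spread of the high repeats. Such a run cannot show how the p-values would hold for conditions.

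The genes and lists were chosen with earlier results of these data known. Named were the class I genes, Satb1, Psmb6 and Psmb7, the 3 tested genes per pathway list with the largest change in the high experiment (mean log2 CPM of at least 1), and the 5 nearest profiles. Mr1, Ciita, H2-Bl, H2-Q2, H2-B2, H2-gs10, Socs1 and single cell type markers were named after their values were seen. Older symbols stood for 3 markers. NK cell and plasma cell markers summed to 3.44 to 4.09 and 13.4 to 13.5 CPM in high Satb1, and 2.58 to 2.65 and 22.5 to 23.5 CPM in high NT libraries.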

Additional observations from a re-analysis of the deposited data

Results flagged for a closer look

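The edgeR test of the interaction compared the siRNA effect between the libraries of the 2 experiments. Its calls flagged H2-K1, Tap1, Tapbp, Psmb8 and Nlrc5, and such calls were common over all genes, at the shares given above. The call for Tapbp ended when any 1 high library was left out, and that for Psmb8 ended with DESeq2. The effect in the high minus that in the low experiment was 0.229 for H2-K1, -0.259 for Tap1, 0.0454 for Tapbp, -0.259 for Psmb8 and 0.176 for Nlrc5 on the log2 scale. With library size in place of TMM, the values for H2-K1, Tapbp and Nlrc5 turned negative. The low experiment has 1 library per siRNA, so that the spread behind these calls is that of the high repeats, and the calls do not show that the conditions differ.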

How the results depend on the processing

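In the high experiment all 8 class I genes stayed lower under library size alone, DESeq2, no filter, a fit of all 6 libraries and without each library in turn. With repeats summed and experiment as a term, edgeR called 0 of the 8, and 6 genes lower and 0 higher of all, against 6722 and 6645 before. Replicate numbers gave no pairing (correlation of deviations -0.0403). A replicate block left 8 genes called lower, with 6664 lower and 6584 higher of all. For the difference between experiments, 5 of the 8 were called, with 4564 lower and 3756 higher of all. Library size alone gave 8 called, with 8339 lower and 1742 higher, and turned H2-K1 to -0.067, Tap2 to -0.22, Tapbp to -0.25, Psmb9 to -0.24, Psmb10 to -0.26 and Nlrc5 to -0.12. DESeq2 gave 1328 lower and 2306 higher, and its adjusted p for Psmb8 was 0.0704. Psmb10 ranged between -0.033 (without high Satb1 replicate 1) and 0.105 without single libraries. In the low pair, library size alone left 0 of 8 at 1.5-fold lower (4 with TMM), with 614 lower and 3831 higher of all, against 1634 and 2101, and no filter gave 3402 and 4144. Between controls, 4355 lower and 4924 higher became 6750 and 2899 with library size alone, and 11928 were lower with no filter. The Psmb10 to Psmb7 ratio of the high pair ranged between 0.768 and 0.862 without each library, and the control ratio was 8.90 in FPKM. The cause was not tested. Ratios with Psmb5 were not run. Psmb9, the gene with fewest counts, had 654 to 1385 per high library, which limits its precision most.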
